A study of Verbena bonariensis with 6 samples.

Results

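The pseudo-response regulators of the circadian clock were followed in roots of Verbena bonariensis, an ornamental garden plant, grown with and without cadmium. A gene cluster is a group of assembled transcripts that was counted as 1 gene. Clusters were taken as members where the best Swiss-Prot hit was described as a two-component response regulator-like protein, whatever family they had been given, which held for 25 of the 8147 clusters in the table. These 25 carried the names PRR95 (7 clusters), APRR7 (6), PRR1 (6), APRR1 (4) and APRR5 (2). The clusters were found by name alone, but the family was picked from measured values, because its differences between cadmium and control were already known from the same libraries. The members' values in that comparison are therefore given as a description, with no p-value, and their counts of calls support nothing.

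The cadmium group held 3 root libraries of the cultivar Finesse, from plants 2 months old, harvested 20 days after 100 mg/kg cadmium was applied. The control group held 3 root libraries of the same cultivar, age and harvest day, with no cadmium solution added. The labels call the libraries biological replicates, without saying how many plants went into each. The labels state a 14 h photoperiod but no hour of harvest, and the part of harvest time in the values below was not tested.

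Pseudo-response regulators are nuclear proteins with a receiver domain that lacks the usual phosphate-accepting residue and, at the other end, a CCT motif that they share with CONSTANS. In Arabidopsis PRR9, PRR7 and PRR5 are made one after the other through the day and switch off the morning genes CCA1 and LHY, and TOC1, also called PRR1 or APRR1, does so in the evening. Their transcripts are known to cycle with the time of day. The rice protein PRR95 is a relative of PRR9 and PRR5.

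The table covers transcription factors and other regulators only. Estimated read counts summed to between 1092183 and 1228042 in the cadmium libraries and between 1207479 and 1340255 in the control libraries, which was 5.23% to 5.53% and 6.45% to 6.52% of the whole libraries recovered from counts and FPKM. Among markers of the tissue, 54 clusters with names of root regulators summed to between 136 and 176 FPKM in cadmium and between 169 and 180 FPKM in control. Of shoot regulators, YABBY 2 and MUTE summed to 0.84 FPKM or less in every library by name, while 22 clusters whose best hit was GLK1 summed to 36.8 ± 2.42 FPKM in cadmium and 60.5 ± 5.78 FPKM in control (SD, n = 3 each). Within the root list SOMBRERO, a root cap factor, summed to 23.02 ± 6.37 FPKM in cadmium and 2.66 ± 1.20 FPKM in control, and SHORT-ROOT to 20.0 ± 3.14 FPKM in cadmium and 32.2 ± 2.43 FPKM in control. Other names of the list went both ways. FEZ summed to 48.9 ± 2.06 FPKM in cadmium and 72.6 ± 4.79 FPKM in control, and SCARECROW to 7.59 ± 1.09 and 5.10 ± 1.23 FPKM. BEARSKIN2 stood at 1.42 ± 0.576 FPKM in cadmium and 3.63 ± 1.79 FPKM in control, with overlapping ranges. The means of PLT1, PLT2 and WUSCHEL-related homeobox 5 were higher in cadmium, and that of LATERAL ROOT PRIMORDIUM 1 was lower. In whole roots fewer cells of a type and less RNA per cell cannot be told apart, and the part of these markers in the results below was not tested.

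The family stood far lower in cadmium roots, and its makeup was different there. The 25 clusters summed to 45.6, 47.5 and 45.1 FPKM in the 3 cadmium libraries, against 213, 203 and 196 FPKM in the 3 control libraries. Types follow the annotated KEGG orthology (KO) name, which was PRR5, PRR7 or TOC1. The 3 clusters with KO name PRR5 and sesame APRR9 as closest protein in NR, a public database, were set apart as the PRR9 type. The 2 clusters closest to sesame APRR3 have the KO name PRR7 and were kept there. The PRR9, PRR7 and PRR5 types together summed to 8.62 ± 1.21 FPKM in cadmium roots, against 184 ± 7.91 FPKM in control roots (SD, n = 3 each). The TOC1 type went the other way, with 37.5 ± 1.31 FPKM in cadmium and 19.4 ± 0.809 FPKM in control. The ratio of TOC1-type to other FPKM lay between 3.74 and 5.2 in the cadmium libraries and between 0.101 and 0.109 in the control libraries.

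**Figure D1:**
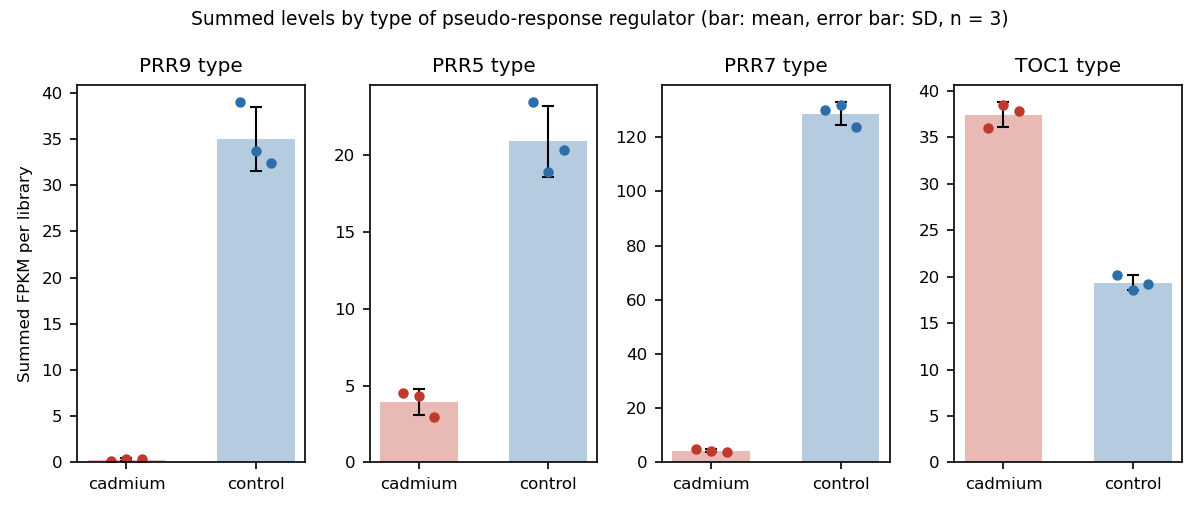
Summed FPKM per library by type of pseudo-response regulator, cadmium left and control right, with points for libraries, bars for means and error bars for the SD (n = 3). Each panel has its own linear axis from 0. PRR9, PRR5 and PRR7 types were lower in all 3 cadmium libraries than in any control library, and the TOC1 type was higher.

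Of the 25 clusters, 20 had enough reads to be tested. The 5 others, all with no more than 34 reads in any library, were 4 of the TOC1 type and the short APRR7 cluster 58398. Cluster numbers are those that follow the shared prefix Cluster-9033. In edgeR's quasi-likelihood fit over all 4844 tested clusters 12 members were called lower in cadmium and 3 higher (Benjamini-Hochberg adjusted p below 0.05), where 14.6% of all tested clusters were called lower and 15.8% higher. The median log2 fold change was −2.61 over the 20 tested members and −0.08 over all tested clusters. The cadmium libraries were all below the control libraries for 14 of the 20 and all above them for 4, against 31.9% and 20.9% of all tested clusters. All 12 clusters called lower were of the PRR9, PRR7 or PRR5 type, and all 3 called higher were of the TOC1 type. A member could pass the read filter through its higher group alone, so these counts are not a measure of the whole family.

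**Figure D2:**
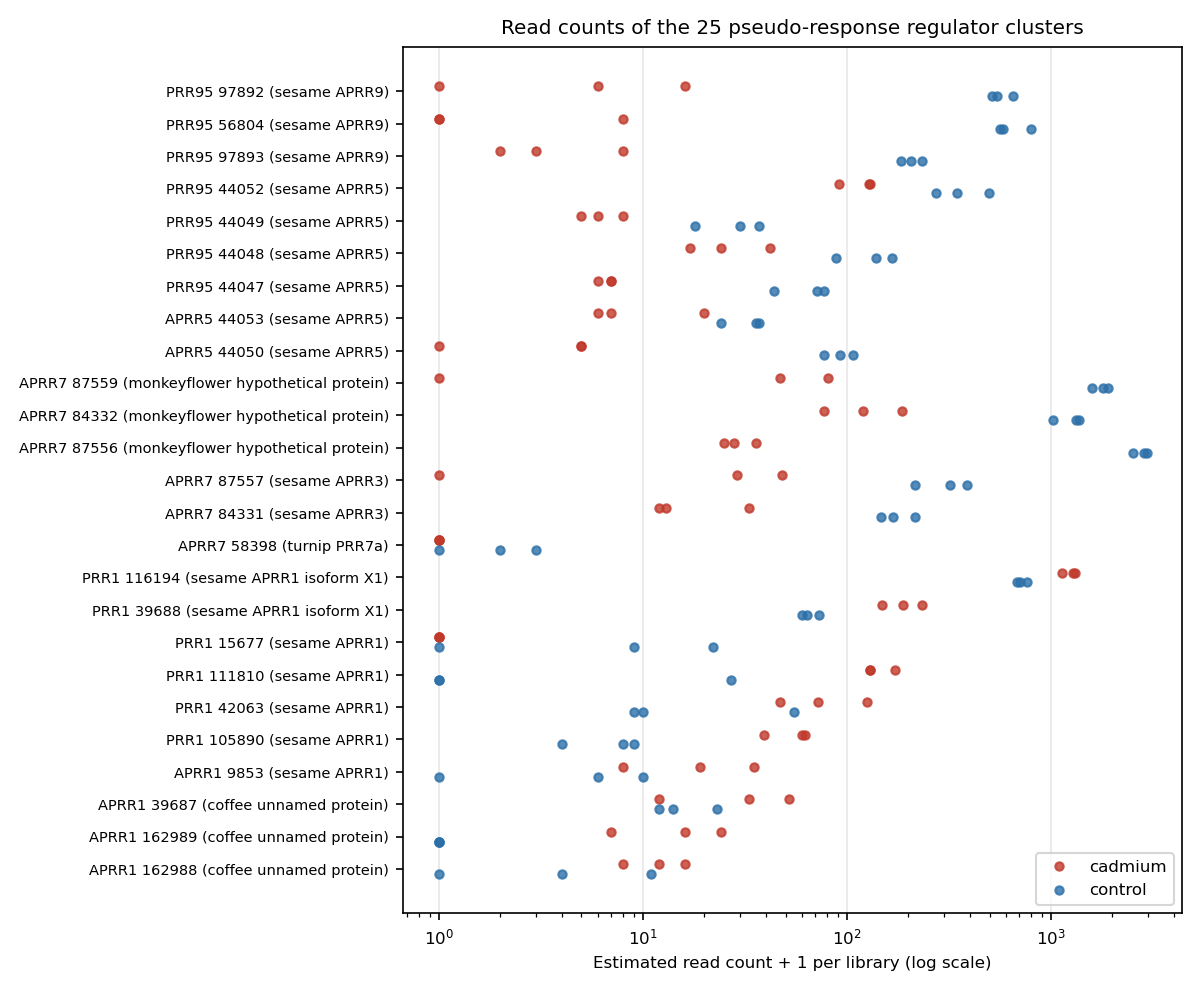
Estimated read counts plus 1 of the 25 clusters in each library on a log scale, cadmium in red above control in blue in each row, with the closest NR protein (from a public protein database) in brackets. The rows of PRR9, PRR5 and PRR7 types have the control points to the right except the sparse cluster 58398, and 5 of the 10 TOC1-type rows have all cadmium points to the right of the control points.

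The PRR9 type, named by its NR hit alone and after the morning member in Arabidopsis, was nearly gone in cadmium roots. The 3 clusters whose best NR hit was sesame APRR9, all named PRR95 by Swiss-Prot, held 8, 17 and 12 reads together in the cadmium libraries, against 1682, 1329 and 1258 reads in the control libraries. Summed over that protein the fold was 101 (log2 fold change −6.65 ± 0.20, SE, n = 3 per group), the widest of the 7 proteins that could be tested as sums. Cluster 56804 had 7, 0 and 0 reads in cadmium and 799, 579 and 561 in control, with a log2 fold change of −7.87 ± 0.86 (SE). Cluster 97892, of nearly the same length (2704 bases against 2701), had 0, 15 and 5 reads in cadmium and 651, 543 and 515 in control. Thus the cadmium library with reads in 56804 was the one with 0 in 97892. Whether the counting shared out reads between clusters with the same best NR hit was not tested. The third cluster, 97893, had 1, 2 and 7 reads in cadmium against 232, 206 and 182 in control. Single-cluster folds here rest on a handful of cadmium reads: without cadmium replicate 1 the log2 fold change of 56804 was −12.25, and that of 97892 was −5.59 without cadmium replicate 1 and −7.60 without cadmium replicate 2, while that of 97893 was −6.80 without cadmium replicate 3.

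PRR7, which follows PRR9 in the Arabidopsis day, made up most of the family in control roots. Its leading cluster, APRR7 87556, had 27, 35 and 24 reads in the cadmium libraries, against 2938, 2516 and 2848 in the control libraries, a log2 fold change of −6.41 ± 0.19 (SE), or 84.8-fold lower. Its mean FPKM placed it at rank 4030 of the 8147 clusters in cadmium and at rank 166 in control. The groups were far apart and the cadmium libraries close to each other.

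The other APRR7 clusters differed in how much remained. Cluster 84332 had 119, 76 and 185 reads in cadmium against 1329, 1377 and 1021 in control, which is 8.75-fold lower (log2 fold change −3.13 ± 0.32, SE). Cluster 87559 had 80, 46 and 0 reads in cadmium against 1801, 1892 and 1583 in control (−5.21 ± 1.01, SE). That log2 fold change was −6.00 without cadmium replicate 1 and −4.62 without cadmium replicate 3, and the call ended without cadmium replicate 2. These 3 clusters share their best NR hit, an unnamed protein of monkeyflower (Erythranthe guttata). Together they had 226, 157 and 209 reads in cadmium and 6068, 5784 and 5452 in control, 25.9-fold lower (−4.70 ± 0.10, SE). Counts of clusters that share a best NR hit are taken here as uncertain one by one. Their makeup differed between the groups: 84332 held 64.3% of the protein's reads in cadmium and 21.5% in control, and 87556 held 14.4% in cadmium and 48.0% in control.

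A pair of APRR7 clusters had sesame APRR3 as best NR hit. PRR3 is the least studied member of the Arabidopsis family and is known to bind TOC1. Cluster 84331 had 32, 12 and 11 reads in cadmium against 215, 168 and 145 in control, a log2 fold change of −3.09 ± 0.46 (SE), which was −3.70 without cadmium replicate 1. Cluster 87557 had 28, 47 and 0 reads in cadmium against 388, 317 and 214 in control. It did not pass the test (−3.40 ± 1.08, SE), although its groups did not overlap, and its log2 fold change was −4.27, not called, without cadmium replicate 2. It was called without cadmium replicate 3 (−2.81), with whole-library totals, with DESeq2 and on both FPKM scales with limma. Summed over the protein the difference passed, at 9.74-fold lower (−3.28 ± 0.41, SE).

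PRR5, the afternoon member, was lower in cadmium by a smaller fold than PRR9 or PRR7, a difference between folds that was not tested. Its 6 clusters, of which 4 were named PRR95 and 2 APRR5, shared sesame APRR5 as best NR hit. Together they held 199, 172 and 127 reads in cadmium and 866, 633 and 640 in control, 3.79-fold lower (log2 fold change −1.92 ± 0.17, SE). The cluster with most reads, PRR95 44052, had 129, 127 and 90 reads in cadmium against 495, 345 and 271 in control. It was 2.81-fold lower (−1.49 ± 0.25, SE) and made up 69.5% of the protein's reads in cadmium and 52.0% in control. APRR5 44050 had 0, 4 and 4 reads in cadmium against 91, 106 and 76 in control (−4.85 ± 0.90, SE, and −4.26 without cadmium replicate 1).

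The 4 remaining PRR5-type clusters had log2 fold changes from −3.27 to −1.48. PRR95 44047 had 6, 5 and 6 reads in cadmium and 70, 43 and 76 in control, and PRR95 44048 had 41, 23 and 16 reads in cadmium and 138, 87 and 165 in control. The call of 44048 (−2.11 ± 0.44, SE) ended without cadmium replicate 2 or control replicate 3. PRR95 44049 had 4, 7 and 5 reads in cadmium against 36, 17 and 29 in control, and its call (−2.13 ± 0.58, SE) ended when any of the 6 libraries was left out. APRR5 44053 had 19, 6 and 5 reads in cadmium and 36, 35 and 23 in control and did not pass (−1.48 ± 0.66, SE, and −2.27 without cadmium replicate 1), but was called on both FPKM scales with limma. In all 6 clusters the cadmium libraries lay below the control libraries.

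TOC1, the evening member, was higher in cadmium roots. The main cluster, PRR1 116194, had 1274, 1125 and 1303 reads in cadmium against 764, 702 and 683 in control, a 1.94-fold rise (log2 fold change 0.96 ± 0.065, SE). The size of this rise depends on the scaling, and with whole-library totals the log2 fold change was 0.61. Its FPKM was 23.3 ± 0.976 in cadmium and 15.2 ± 0.116 in control (SD, n = 3 each). PRR1 39688, with the same best NR hit (sesame APRR1 isoform X1), had 148, 231 and 188 reads in cadmium against 72, 59 and 63 in control (1.73 ± 0.24, SE). The groups did not overlap in either cluster, with the cadmium libraries of 39688 spread more widely than those of 116194. Cluster 116194 held 86.7% of this protein's reads in cadmium and 91.7% in control.

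A second sesame APRR1 protein was rarer and was also higher in cadmium. Its 5 clusters held 318, 247 and 320 reads together in cadmium and 74, 42 and 41 in control, 6.35-fold higher (log2 fold change 2.67 ± 0.21, SE). PRR1 105890 had 59, 38 and 61 reads in cadmium against 8, 7 and 3 in control and was called higher (3.28 ± 0.51, SE). PRR1 111810 had 171, 129 and 128 reads in cadmium against 0, 26 and 0 in control. It did not pass (4.15 ± 1.5, SE) although its groups did not overlap, and it was called without control replicate 2, the only control library with reads, where the fitted value of 10.24 rests on a control group at 0 and is no measure of size. It was also called on both FPKM scales with limma. PRR1 42063 had 71, 46 and 124 reads in cadmium against 54, 9 and 8 in control and did not pass either (1.97 ± 0.82, SE), with groups that overlapped, and was called without control replicate 1 (3.35) and with DESeq2. PRR1 15677 ran the other way, with 0 reads in all 3 cadmium libraries against 8, 0 and 21 in control, a sum at least 8.78-fold lower than in control if the cadmium group is set at 3 counts, and was too sparse to test.

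The APRR1 clusters of the TOC1 type were sparse. Those with a coffee protein as best NR hit held 73, 65 and 31 reads in cadmium and 23, 14 and 22 in control, and their sum was 3.28-fold higher (log2 fold change 1.71 ± 0.41, SE). The largest of them, APRR1 39687, had 51, 32 and 11 reads in cadmium against 13, 11 and 22 in control and did not pass (1.19 ± 0.68, SE). APRR1 162989 had 15, 23 and 6 reads in cadmium and 0 in all 3 control libraries, which is at least 15.7-fold higher if the control group is set at 3 counts. Groups overlapped in the 2 other APRR1 clusters, both too sparse to test: 162988 had 7, 11 and 15 reads in cadmium against 10, 3 and 0 in control, and 9853 had 18, 34 and 7 reads in cadmium against 5, 0 and 9 in control. After counts were summed over best NR proteins, 4 of the 7 tested proteins of the family were called lower and 3 higher, where 29.9% and 30.4% of the 2070 tested proteins were.

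**Figure D3:**
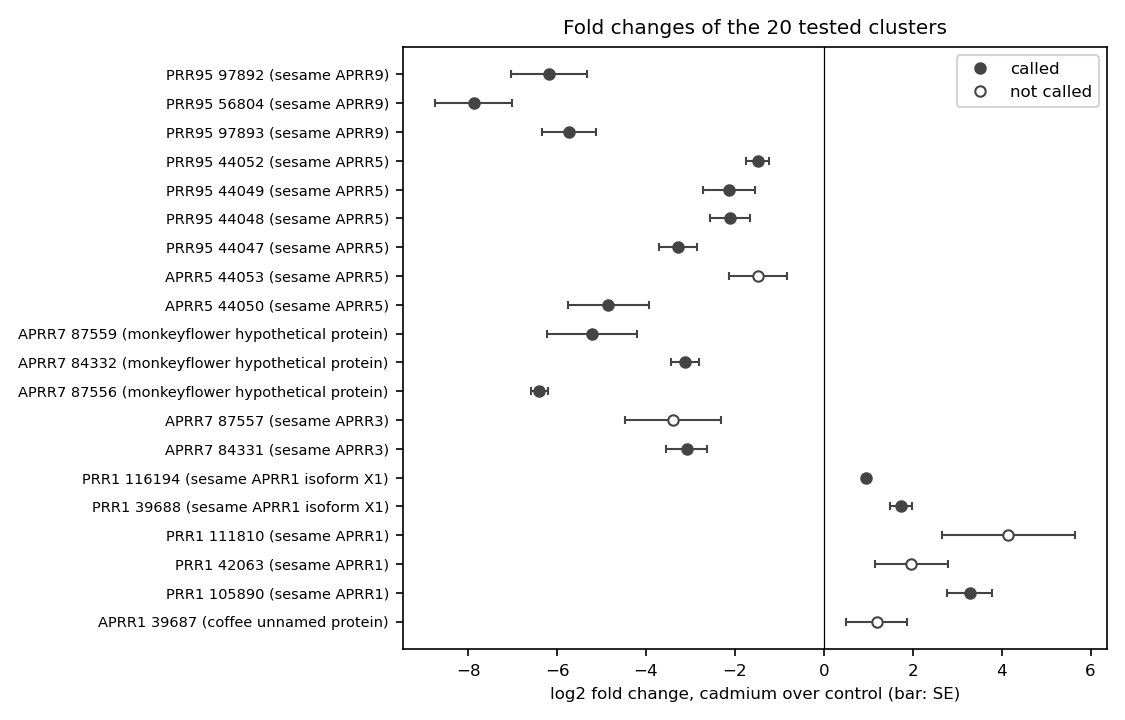
Log2 fold change of cadmium over control for the 20 tested clusters, with the SE as bar, filled where the fit called the cluster and open where it did not. All 14 PRR9, PRR5 and PRR7 type clusters lie below 0 and all 6 TOC1-type clusters above 0.

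The order of the proteins by level, compared per length as summed FPKM, was different in the 2 groups. In cadmium roots sesame APRR1 isoform X1 came first at 26.1 to 29.1 FPKM and the second sesame APRR1 next at 6.35 to 7.33 FPKM. Sesame APRR5 (2.97 to 4.54 FPKM) and the monkeyflower PRR7 protein (3.00 to 3.74 FPKM) overlapped there, and that PRR7 protein overlapped the coffee protein (1.47 to 3.09 FPKM). Sesame APRR3 (0.23 to 1.29 FPKM) and sesame APRR9 (0.17 to 0.39 FPKM) came last among the tested proteins and overlapped each other. In control roots the monkeyflower PRR7 protein stood first at 115 to 118 FPKM. Sesame APRR9 (32.4 to 38.9 FPKM), sesame APRR5 (18.9 to 23.4 FPKM), sesame APRR1 isoform X1 (16.8 to 17.3 FPKM) and sesame APRR3 (8.64 to 13.1 FPKM) followed without overlap. The second sesame APRR1, the turnip and the coffee proteins, all at 2.43 FPKM or less in each control library, overlapped.

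The makeup of the family was alike within a group and different between groups. TOC1-type clusters took 78.9%, 81.1% and 83.9% of the family's FPKM in the cadmium libraries and 9.51%, 9.17% and 9.82% in the control libraries. PRR7-type clusters took 9.50% ± 1.10 in cadmium and 63.1% ± 1.90 in control, and PRR5- and PRR9-type clusters 9.21% ± 1.57 in cadmium and 27.4% ± 1.77 in control (SD, n = 3 each). As a share of all regulator reads the family came to 0.186% ± 0.0059 in cadmium and 0.731% ± 0.026 in control (SD, n = 3 each).

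**Figure D4:**
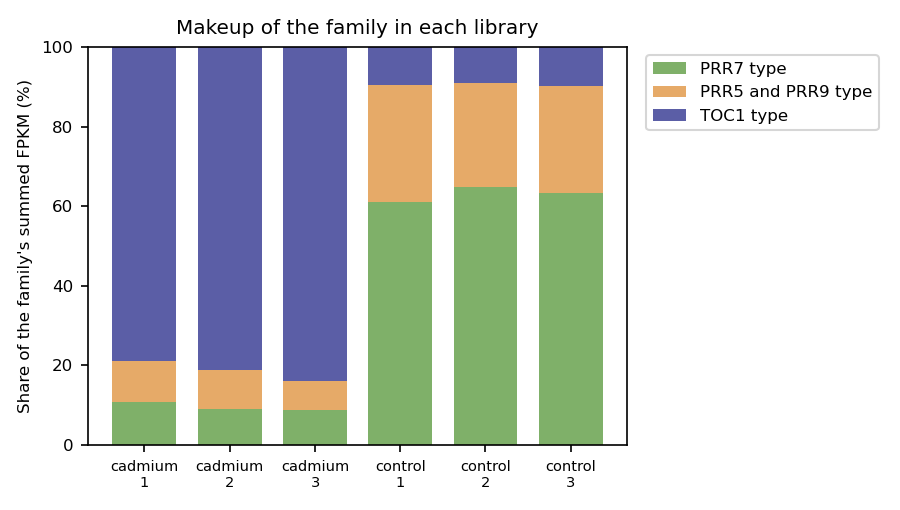
Share of the family's summed FPKM in each library that fell on PRR7, PRR5 with PRR9, and TOC1 types, cadmium libraries left and control libraries right. The TOC1 type takes 78.9% or more in each cadmium library and 9.82% or less in each control library.

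By their annotated domains, 15 of the 25 clusters held both a receiver domain and a CCT motif, 5 a receiver domain only and 5 a CCT motif only. Clusters with both were longer (median 2494 bases, 1936 to 2880) than those with 1 of the 2 domains (median 1410.5 bases, 267 to 1728). All 12 clusters that the table puts in the Pseudo ARR-B family held both domains, while 3 others with both domains and all 10 with only 1 stood among its Orphans. The 4 TOC1-type clusters with 1 domain lacked the CCT motif, and 4 of the 5 such clusters with the KO name PRR5 lacked the receiver domain. The other was 97893 of the PRR9 type, which lacked the CCT motif. The authors' deposited table flags 12 members down and 5 up, with a log2 ratio of −6.4957 for APRR7 87556 and 0.87876 for PRR1 116194. Of all 8147 clusters, 784 had a deposited q-value below 0.05 with a log2 ratio below 0, and 689 with one above 0. These flags come from the same libraries. Members flagged in the authors' deposited table and not called here were PRR1 111810, APRR1 162989 and APRR7 87557, and PRR95 44049 was called here without a flag there.

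Other clock genes were followed by name to see how the rest of the circuit stood. Over all 4844 tested clusters 14.6% were called lower and 15.8% higher, the shares to set beside each list below. Of 63 tested clusters of MYB-like morning factors, evening complex factors and known outputs of the clock, 15 were called lower and 6 higher (edgeR, Benjamini-Hochberg adjusted p below 0.05). The lower calls were 24 with limma on FPKM, and the higher ones 13 with DESeq2. The shares above are those of edgeR, and these settings called more clusters of any kind. Calls in all, lower and higher together, were 1476 with edgeR and 2094 with DESeq2. With limma they were 2149 on log2(FPKM + 1) and 2041 on log2(FPKM + 0.1). The median log2 fold change of the 63 clusters was −0.83 in the edgeR fit. No cluster had a name from a further list of partner proteins (TOPLESS, TCP21, GIGANTEA, ADAGIO, TIME FOR COFFEE).

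Among the morning factors, which the pseudo-response regulators repress in Arabidopsis, 3 of 12 tested clusters were called lower and 1 higher (median −0.31). LHY was not among them: its 3 tested clusters did not pass, and cluster 119094 had 373, 231 and 93 reads in cadmium against 174, 98 and 137 in control (log2 fold change 0.95 ± 0.49, SE, edgeR adjusted p = 0.203). It was called without cadmium replicate 3 (1.34) and when summed over its NR protein (0.98). CCA1 had 3 clusters, 0 of them with enough reads to be tested. They summed to 0.93 to 2.14 FPKM in cadmium and 0.09 to 1.57 FPKM in control. The 3 called lower were the 3 tested clusters of REVEILLE 1, a factor that links the clock to auxin, which summed by name to 1.36 ± 0.335 FPKM in cadmium and 18.8 ± 0.777 FPKM in control (SD, n = 3 each). The leading one, 142516, had 28, 13 and 27 reads in cadmium against 258, 271 and 206 in control (−3.27 ± 0.31, SE, edgeR adjusted p = 0.000848). The 1 tested cluster of REVEILLE 8, known in Arabidopsis as an activator of PRR5 and TOC1, was called higher, and that name summed to 4.81 ± 0.858 FPKM in cadmium and 0.66 ± 0.451 FPKM in control. REVEILLE 6, the most abundant of the list, had 5 tested clusters and 0 called, and its cluster 108044 differed by −0.30 ± 0.13 (SE, edgeR adjusted p = 0.14), a difference called with whole-library totals (−0.65) and with limma on both FPKM scales (−0.58 and −0.62).

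The evening complex represses PRR9 at night in Arabidopsis. Its list here held only clusters named LUX, PCL1 and BOA, and none named ELF3 or ELF4, which were also searched for. In this list 3 of 13 tested clusters were called lower and 2 higher (median −0.24). All 3 lower ones were named LUX, the DNA-binding subunit, which summed to 25.3 ± 1.41 FPKM in cadmium and 46.5 ± 3.74 FPKM in control (SD, n = 3 each). PCL1, its rice counterpart by name, had a leading cluster (86533) that rose, with 897, 833 and 1017 reads in cadmium against 650, 594 and 640 in control (log2 fold change 0.72 ± 0.089, SE, edgeR adjusted p = 0.00203). It was the only 1 called of 6 tested PCL1 clusters, whose median was −0.90. By name PCL1 summed to 43.1 to 52.1 FPKM in cadmium and 39.3 to 45.8 FPKM in control, with overlap. The LUX cluster with most reads, 34286, had 318, 299 and 297 reads in cadmium and 350, 183 and 302 in control and did not pass (0.32 ± 0.22, SE, edgeR adjusted p = 0.338). The BOA cluster 93578 was called higher by a small margin (0.31 ± 0.092, SE, edgeR adjusted p = 0.0464) with overlapping groups, a call that ended with any of 5 of the 6 libraries left out and whose direction turned with whole-library totals (−0.036).

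Among outputs of the clock, 9 of 38 tested clusters were called lower and 3 higher (median −1.07). Cyclic Dof factors, repressors of CONSTANS, went apart by name. Cyclic Dof factor 3 had 3 of 4 tested clusters called lower and summed to 13.4 ± 1.39 FPKM in cadmium and 30.8 ± 0.539 FPKM in control. Cyclic Dof factor 2 had 3 called higher and 2 lower of 12 and summed to 53.4 ± 2.02 FPKM in cadmium and 27.6 ± 1.51 FPKM in control (SD, n = 3 each). Its leading cluster 41631 had 460, 400 and 103 reads in cadmium against 394, 384 and 381 in control (−0.088 ± 0.51, SE, edgeR adjusted p = 0.922), a direction that turned without cadmium replicate 3 (0.34) and when summed over its NR protein (0.80).

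The bHLH factor PIF1, which acts in light signalling, had 4 of 15 tested clusters called lower and 0 higher. Cluster 58351 had 96, 24 and 44 reads in cadmium against 543, 545 and 402 in control (log2 fold change −3.03 ± 0.47, SE, edgeR adjusted p = 0.00502, and −3.66 without cadmium replicate 1). Cluster 106114 had 145, 125 and 85 reads in cadmium against 405, 352 and 302 in control (−1.40 ± 0.23, SE, edgeR adjusted p = 0.00573). The groups were apart in both.

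Relatives by domain moved in both directions, as did all tested clusters (14.6% called lower and 15.8% higher). Of 34 tested CONSTANS-like clusters, which share the CCT motif, 9 were called lower and 10 higher (median −0.33). CONSTANS-LIKE 9 105807 had 2407, 2037 and 2182 reads in cadmium against 341, 187 and 190 in control (log2 fold change 3.39 ± 0.22, SE, edgeR adjusted p = 0.000212). CONSTANS-LIKE 11 98458 was higher (0.78 ± 0.094, SE, edgeR adjusted p = 0.00183) and CONSTANS-LIKE 10 77935 lower (−0.74 ± 0.094, SE, edgeR adjusted p = 0.00232).

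True response regulators, which share the receiver domain and act in cytokinin signalling, had 15 of 70 tested clusters called lower and 12 higher (median −0.13). The names of type A, a class of these regulators (ARR4, ARR5, ARR6, ARR8, ARR9 and ARR15), took 11 of the lower calls and 1 of the higher ones, out of 21 tested clusters. Among the 3 most abundant, ARR1 72361 (1.56 ± 0.061, SE, edgeR adjusted p = 5.1e-05) and ARR2 50181 (2.46 ± 0.12, SE, edgeR adjusted p = 8.6e-05) rose, and ARR9 117488 did not pass (−0.29 ± 0.13, SE, edgeR adjusted p = 0.155) except with whole-library totals (−0.64), on the FPKM scales and in NR sums.

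**Figure D5:**
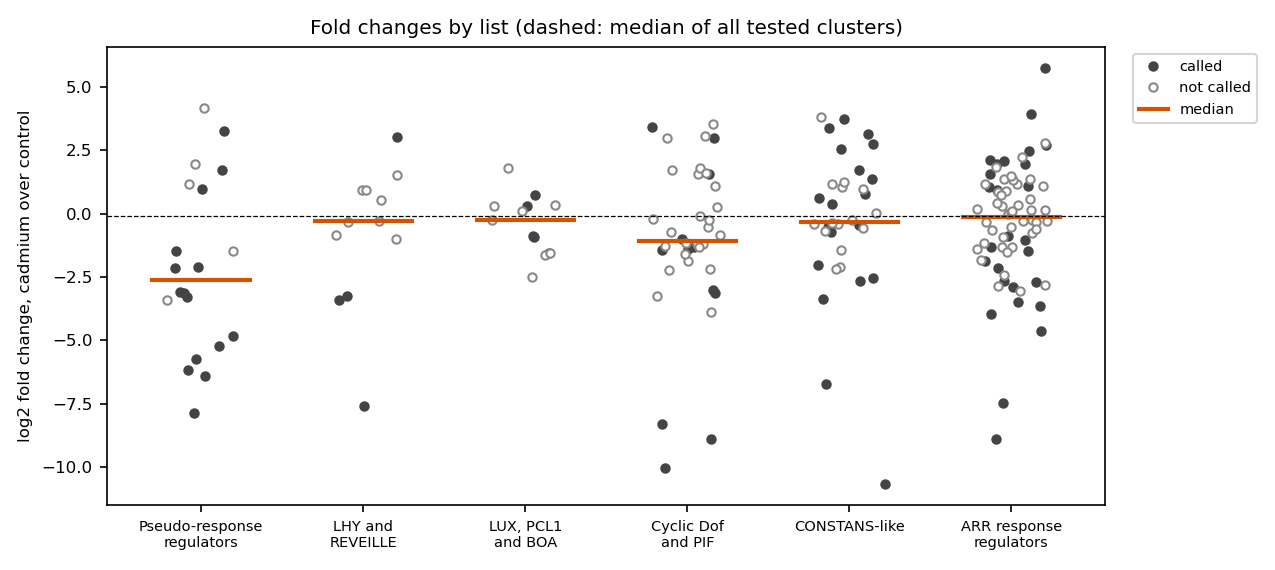
Log2 fold change of cadmium over control for all tested clusters of the family, of the other clock lists and of its relatives by domain, filled where called, with the list median as a bar and the median of all 4844 tested clusters as a dashed line. The lowest points include clusters at 0 in every cadmium library, whose fitted values are no measure of size. The family, which was picked from values of this comparison, has a median of −2.61, and the other lists have medians of −1.07 to −0.13. Those lists pool names that went both ways, such as REVEILLE 1 (median −3.43) and REVEILLE 8 (3.01).

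Likeness was measured as the root mean square difference of log2 CPM over the 6 libraries, each cluster centred on its own mean, so that it takes in the difference between groups as well as the spread within them. It describes single clusters, which can differ from the sum over their NR protein. The clusters most like PRR1 116194 were the CCCH zinc finger proteins 92540 (0.0392) and 137366 (0.0534) and the ethylene-responsive factor ERF9 51396 (0.0554), where the median over all tested clusters was 0.876. The log2 fold change of 137366 was 1.05, but 0.029, not called, when summed over its NR protein. Nearest to APRR7 87556 were ARF5 35547 (0.3), a ZRANB3-like helicase 35719 (0.32) and CONSTANS-LIKE 10 76639 (0.346), all 3 at 0 in every cadmium library, with a median of 3.2 over all. Summed over their NR proteins, the log2 fold changes were 0.14 for ARF5 and 0.037 for the helicase, neither called. That of CONSTANS-LIKE 10 was −0.73 as a sum and was called. Nearest to PRR95 56804 were CONSTANS-LIKE 10 76639 (0.897), ERF017 139241 (0.901) and a PLATZ cluster with no Swiss-Prot name, 79453 (0.962). APRR5 44050 was most like a BTB/POZ protein, 87356 (0.386), an AP2-like factor, 39547 (0.536), and the B-box protein BBX19, 137521 (0.548). APRR1 39687 was most like the bHLH factor BIM2 (0.0766), LHY 119094 (0.303) and Scarecrow-like 15, 126620 (0.303).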

How the data were processed

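Root RNA of 3 cadmium and 3 control samples was sequenced from TruSeq libraries, per the labels. Bowtie2 2.0.6 and TopHat2 2.0.12 are listed, with no role, per the submitters' processing notes. The authors deposited read counts and FPKM per cluster, per the file headers. The deposited counts have decimals, so they were read here as estimated counts not scaled to depth, a reading from their values, since no source used here names the counter. The deposited log2 ratio and q-value are the authors' own comparison, with a test not given in the sources used here. No sequence of the clusters was used here.

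Here the 8544 lines were reduced to 8147 clusters, counts were rounded, and edgeR 4.0.16 in R 4.3.3 was run over the whole table: filterByExpr (minimum count 10, minimum total 15), TMM, quasi-likelihood test with group as the only term, Benjamini-Hochberg adjustment. Each SE was taken as |log2 fold change|/√F. TMM centres fold changes on the bulk of the regulators. Whole-library totals came from counts, FPKM and length, over clusters above 300 counts and 10 FPKM. The common biological coefficient of variation was 0.573. The bounds (3 counts over a group) cover counting error only, while each SE also takes in the spread between libraries.

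The members and lists were chosen with earlier results of these data known. Named are the members, the 3 most abundant tested clusters of each list (levels in CPM), and the 3 clusters most like the leading cluster of each name (log2 CPM, prior count 2). Name sums and type A counts were added after their values were seen. Alternatives used DESeq2 1.42.0 and limma 3.58.1. Python 3.11.15, pandas 2.3.3, numpy 2.4.6 and matplotlib 3.10.9 prepared tables and figures.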

Additional observations from a re-analysis of the deposited data

How the results depend on the processing

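All 20 tested members kept their direction under each of the 15 other settings tried: RLE factors, whole-library totals, no filter, 5 CPM in 3 libraries, DESeq2, limma-trend with FPKM pseudocounts of 1 and 0.1, the replicate block, each library left out, and sums over the best NR protein. In the NR sums each cluster takes the value of its protein, to which its own reads contribute, so that setting is no check on single clusters. Leaving out a library gave 9 to 12 members called lower, 3 to 4 higher, 12 to 16 clock-list clusters lower, 5 to 7 higher, and 1136 to 1210 calls in all, against 12, 3, 15, 6 and 1476. With whole-library totals the median of all clusters shifted by −0.35. With the replicate block (a term for the replicate number) 9 members were called lower and 3 higher, with 886 calls in all. Same-numbered libraries did not deviate together (r from −0.0038 to 0.0292), so the numbers were not taken as pairs. Clock-list clusters called higher were 13 with DESeq2, where calls in all were 2094. Those called lower were 24 with limma on either FPKM scale. There, calls in all were 2149 on log2(FPKM + 1) and 2041 on log2(FPKM + 0.1). The cause of the higher numbers was not tested. Sums over NR proteins gave 4 member proteins lower, since clusters merge. BOA 93578 turned to −0.036 with whole-library totals, −0.024 and −0.025 on the log2(FPKM + 1) and log2(FPKM + 0.1) scales and −0.19 in NR sums, LUX 34286 to −0.038 with whole-library totals, and cyclic Dof factor 2 41631 to 0.80 in NR sums and ranged from −0.38 to 0.34 with a library left out. Depth limits the cadmium values of the PRR9 type, which rest on 17 reads or fewer per library.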
